A study of Mus musculus with 8 samples.

Results

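The 35 genes described here encode proteins of the complement system. They were chosen by symbol from the gene names of the deposited comparison table. No measured value was a criterion, but earlier results of these data were known when the choice was made. All 35 symbols had a row among the 56077 genes and loci of the count table. All 35 also passed the filter on low counts that left 14261 genes for testing, so none was lost before the comparison. They were grouped by role into 7 classical pathway genes, 7 lectin pathway genes, 4 alternative pathway genes (with C3, where all pathways meet), 7 terminal pathway genes, 8 regulators and 2 receptors.

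The livers came from 4 wild-type and 4 heterozygous mice of strain C57BL/6, 6 months old, lean, with free access to food and killed in the fed state in the early morning. Sample titles give the heterozygous genotype as eIF2α flox/+ and the genotype field as Eif2a flox/+. No Cre line or other recombinase is named, so the sources used here do not say what made the allele heterozygous in the liver, and the protocol text describes every mouse as wild-type. RNA from whole liver, depleted of ribosomal RNA, was sequenced, and each library is called by its column, W32, W33, W76 and W90 for wild type and H11, H12, H15 and H75 for heterozygous mice. Eif2s1, which encodes eIF2α, was at 28.4 to 32.8 CPM (counts scaled to library size) in wild-type and 20.5 to 25.1 CPM in heterozygous libraries.

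Complement is a chain of plasma proteins that marks microbes and damaged cells for removal. The classical pathway starts with C1q bound to antibody, the lectin pathway with mannose-binding lectins, collectins and ficolins bound to sugars, and the alternative pathway keeps itself running on surfaces through factor B and factor D. All routes cleave C3 and then C5, and C5b gathers C6, C7, C8 and C9 into the membrane attack complex. Hepatocytes secrete most of these proteins and make more of several of them in the acute phase response, while C1q, properdin and the anaphylatoxin receptors come mainly from macrophages and other myeloid cells.

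Library totals ran from 22177979 to 28564357 counts, and each complement gene was counted between 5 times (C7 in H75) and 151242 times (C3). The summed CPM of 8 hepatocyte markers was 81867 to 109424 in wild-type and 94240.0 to 103905 in heterozygous libraries. Y-linked Ddx3y had 828 to 1669 counts and Xist 0 to 11 in every library; the labels give no sex. Summed markers of the other cell types overlapped between the groups: Kupffer cells 198 to 358 against 212 to 378 CPM, stellate cells 202 to 249.7 against 114 to 286, sinusoidal endothelium 174 to 239 against 192 to 289, and cholangiocytes 34.2 to 87.7 against 41.0 to 102. Neutrophil, monocyte and lymphocyte markers summed to at most 7.70 CPM in any library, and Ly6g, which defines neutrophils, had 0 counts in all libraries but H15. Of these lists, 1 of 8 tested endothelial genes (Pecam1), 1 of 5 cholangiocyte genes (Sox9) and 2 of 3 neutrophil genes (S100a8 and S100a9) had an unadjusted p under 0.05, all higher in heterozygous livers. In the results below H15 and W32 stood apart. H15 lay inside the wild-type range in 23 of the 35 complement genes. W32 was the lowest library for several terminal pathway genes.

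Levels of different genes were set side by side per kilobase of the gene length that the authors deposited. For some genes that length is shorter than the annotated exonic bases, as for Clu (1810 against 3437), so the order rests on the length used. On this scale C3 was the most abundant complement transcript in wild-type livers, at 958 CPM per kilobase. Vitronectin (Vtn, 922) and clusterin (Clu, 579), which both keep terminal complexes from inserting into membranes, came next, and factor B (Cfb) followed at 351. In all, 16 of the 35 genes reached 100 CPM per kilobase in wild-type livers. In the lower range, 7 genes were under 10, namely Cfp, Cfd, Colec10, Cd55, C7, C3ar1 and C5ar1, and C7 and both receptors were under 1. C3 and Vtn overlapped between libraries on this scale, so their order is not separated by the spread. Together the 35 genes took 1.57 to 1.70% of the counts of wild-type libraries and 1.75 to 1.88% of those of heterozygous libraries. The sum was 15018 to 16509 CPM over the wild-type libraries. It was 18519, 19647 and 20672.5 CPM for H11, H12 and H75, and 16478.5 CPM for H15, which lay inside the wild-type range. The plot of levels per gene length shows the spread from C3 and Vtn down to the receptors.

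**Figure D1:**
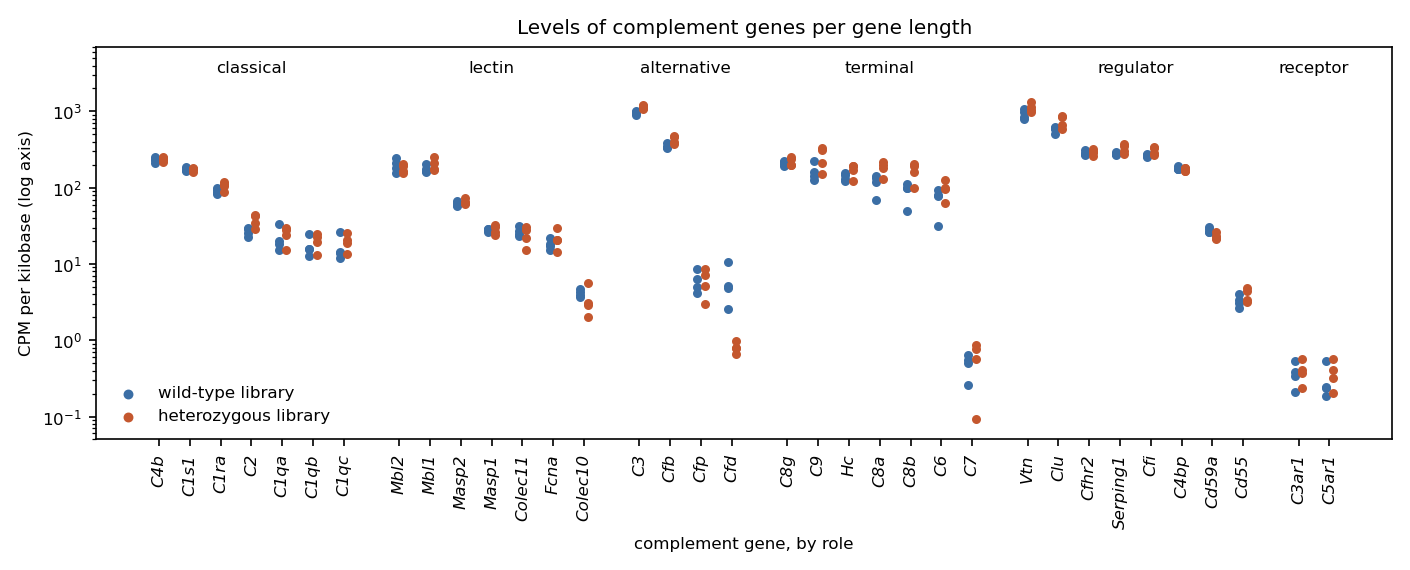
CPM per kilobase of gene length on a log axis for each complement gene, ordered by role and by wild-type level, with 1 point per wild-type (blue) and heterozygous (orange) library. C3 and Vtn lie near 1000 in every library, C3ar1 and C5ar1 under 1, and Cfd is the 1 gene of low level whose points separate widely between the genotypes.

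Complement transcripts were mostly somewhat higher in heterozygous livers, with 1 large exception, factor D (Cfd), which was several-fold lower. No member passed edgeR's quasi-likelihood test at an adjusted p under 0.05 over all genes (0 of 35; background 0% of 14261 genes), and the smallest adjusted p was 0.136, for Cfd. At an unadjusted p under 0.05, 8 of 35 members were higher (C2, C3, Cfb, C8a, C8b, C9, Clu and Vtn) against 4.9% of all genes, and 2 were lower (Cfd and Cd59a) against 4.44%. DESeq2 called 2 members, C3 and Cfd, against 1.07% of all genes, and limma-voom called 0 against 0%. The mean log2 fold change was positive in 27 of 35 members and in 7284 of 14261 genes. The median was 0.21 over the members and 0.0051 over all genes tested. Library totals alone as the scaling moved the median of all genes by -0.085 and left 22 members with a positive value and a median of 0.12. In the authors' deposited table, 1 of 35 members (Cfd, adjusted p = 1.55e-08) had an adjusted p under 0.05, against 0.988% of the genes tested here, and C3 had 0.0669. Of the acute phase genes, 25 of 25 tested had a positive value, with a median of 0.65 and 17 at an unadjusted p under 0.05.

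The count of 8 higher members depended on single libraries. It was 13 without H15, against 7.84% of all genes in the same fit. Without W32, W33, W76 and W90 it was 5, 3, 4 and 7, against 3.38, 3.84, 3.66 and 5.11%. Without H11, H12 and H75 it was 6, 3 and 4, against 5.7, 2.99 and 3.52%. H11, H12 and H75 lay above the highest wild-type library in 19, 17 and 17 of 35 members, against 20.8, 28.6 and 29.1% of all genes. H15 lay above that range in 3 members, inside it in 23 and below it in 9, with 20.5% of all genes above and 20.1% below. The median difference from the wild-type mean over the 35 genes was, as log2, 0.23, 0.19, -0.037 and 0.31 for H11, H12, H15 and H75. For the acute phase genes it was 0.56, 1.29, 0.014 and 1.18. Without H15 edgeR called 1 member, Cfd, against 1.74% of all genes. DESeq2 without H15, a setting added after the data were seen, called 10 (C1ra, C2, C3, C8a, C8b, C9, Cfb, Cfd, Clu and Hc) against 5.36%. The heat map by role shows this pattern library by library. What sets H15 apart was not tested.

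**Figure D2:**
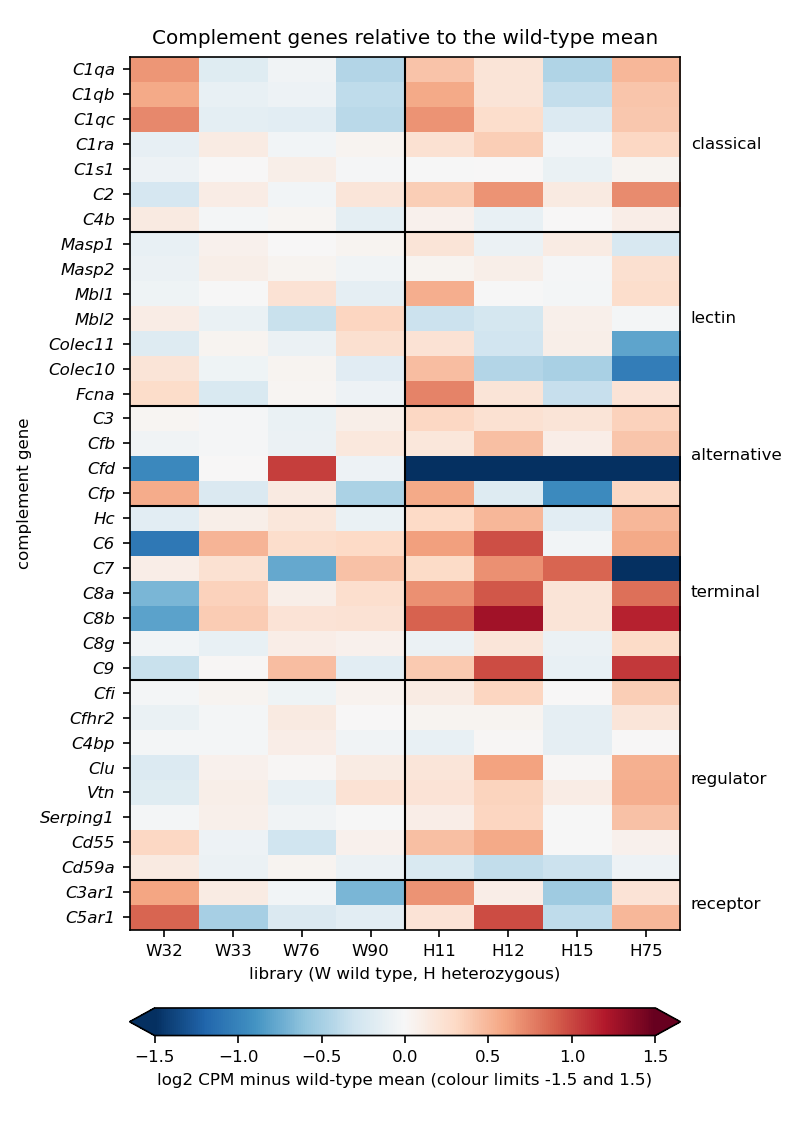
Difference of log2 CPM from the wild-type mean for 35 complement genes (rows, by role) in 8 libraries (columns), with values beyond the colour bar drawn in its end colour. Columns H11, H12 and H75 are mostly red in the terminal and regulator rows, H15 is pale there apart from C7 and Cd59a, W32 is blue in C6, C8a and C8b, and Cfd is dark blue in all heterozygous libraries.

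The genes on which these results turn are shown first by the 250 bases before their annotated start, from RefSeq on GRCm38.p6, 5′ to 3′ on the gene's own strand. C3 and Cfd are the members whose groups did not overlap, and C8a, C8b and C9 are the terminal genes with the largest fold changes. Capitals mark matches to motifs of factors that act on acute phase promoters or hepatocyte genes.
C3, chr17:57228137-57228386, minus strand: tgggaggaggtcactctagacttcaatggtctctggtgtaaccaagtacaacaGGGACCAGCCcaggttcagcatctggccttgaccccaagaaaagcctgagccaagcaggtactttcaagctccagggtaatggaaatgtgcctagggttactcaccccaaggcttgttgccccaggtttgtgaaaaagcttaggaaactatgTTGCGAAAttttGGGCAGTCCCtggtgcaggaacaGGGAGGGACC
Cfd, chr10:79890603-79890852, plus strand: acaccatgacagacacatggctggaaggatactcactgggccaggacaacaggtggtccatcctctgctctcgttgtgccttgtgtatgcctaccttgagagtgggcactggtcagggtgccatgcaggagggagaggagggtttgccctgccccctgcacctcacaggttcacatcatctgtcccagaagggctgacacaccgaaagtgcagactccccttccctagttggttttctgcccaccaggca
C8a, chr4:104876399-104876648, minus strand: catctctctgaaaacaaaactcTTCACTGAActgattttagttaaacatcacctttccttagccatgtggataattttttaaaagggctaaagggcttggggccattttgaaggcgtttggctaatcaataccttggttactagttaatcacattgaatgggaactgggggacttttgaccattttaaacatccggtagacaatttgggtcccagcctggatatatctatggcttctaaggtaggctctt
C8b, chr4:104766067-104766316, plus strand: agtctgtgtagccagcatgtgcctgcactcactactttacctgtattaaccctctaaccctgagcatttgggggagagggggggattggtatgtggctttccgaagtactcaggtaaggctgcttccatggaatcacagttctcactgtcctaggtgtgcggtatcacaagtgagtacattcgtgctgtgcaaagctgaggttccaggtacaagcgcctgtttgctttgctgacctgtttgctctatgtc
C9, chr15:6445096-6445345, plus strand: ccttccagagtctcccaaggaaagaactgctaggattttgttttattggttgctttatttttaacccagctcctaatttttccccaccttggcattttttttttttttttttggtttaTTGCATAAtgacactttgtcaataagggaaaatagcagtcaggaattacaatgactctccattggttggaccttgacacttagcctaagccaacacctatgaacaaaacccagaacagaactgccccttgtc

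A promoter entry was found for 26 of the 35 members (28 starts), and both strands of the 250 bases were searched. The C/EBP motif TTGCNNAA was present before C3, C9 and C1s1, that is at 3 of 28 starts against 9.56% of 32851 promoters of the same length. The STAT motif TTCNNNGAA was present at 4 starts (C8a, C7, Colec11 and Masp2), against 7.02%. The NF-kB pattern, GGGA followed by any 4 bases and CC, was present at 5 starts (C3, C1qb, C1qc, C1s1 and Cd55), against 17.6%, and C3 held it 3 times, once at 10 to 1 bases before the start. The HNF4 motif CAAAGTNCA was present before Cfhr2 alone, 1 start against 1.19%, and the HNF1 motif at 0 starts against 0.00913%. No match in capitals overlaps another in the sequences shown. None of the 5 patterns was found in the windows of Cfd and C8b. A match is a stretch of letters, not a measured site.

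In the alternative pathway, factor D was low and C3 and factor B were modestly high in heterozygous livers. Factor D is the serine protease that cleaves factor B once it is bound to C3b. Cfd was at 2.38, 4.75, 9.79 and 4.46 CPM in W32, W33, W76 and W90. In H11, H12, H15 and H75 it was at 0.602, 0.732, 0.722 and 0.901 CPM. Every heterozygous library lay below every wild-type library, H15 included, and the wild-type libraries differed among themselves by several-fold. Means were 5.35 ± 3.14 and 0.739 ± 0.123 CPM (here and below SD over 4 libraries per group), so the wild-type level was 7.22-fold higher. The log2 fold change was -2.85 (SE 0.416), with an adjusted p of 0.136 by edgeR and 2.85e-08 by DESeq2. These values rest on 70 to 254 counts per wild-type and 15 to 19 per heterozygous library. Without W76, its highest wild-type library, the log2 fold change was -2.38 (adjusted p = 0.209, edgeR). It passed edgeR's test without W32 (adjusted p = 0.0453), without H15 (0.0282) and with no filter on low counts (0.00928), and over 19 settings the adjusted p ran from 2.85e-08 to 0.379. In bulk tissue, fewer cells of a type and less RNA per cell cannot be told apart.

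Fat cells are the best known source of factor D, so the 8 adipocyte markers are given beside it. Their sum was 11.6 to 19.0 CPM in wild-type and 8.30 to 12.9 CPM in heterozygous libraries, and 2 of 8 passed the filter on low counts. Lep and Slc7a10 had 0 counts in every library. Adipoq had 0 to 1 counts in wild-type and 0 to 2 in heterozygous libraries, and Plin1 0 to 2 and 0 to 1. Retn, the gene of resistin, had 3 to 12 counts in wild-type and 0 to 1 in heterozygous libraries, with 12 in W76, where Cfd was highest. The sum of the 8 markers was highest in W32 (19.0 CPM), the wild-type library with the lowest Cfd. Most of that sum was Cidec (13.0 CPM) and Fabp4 (5.62 CPM), the 2 markers that passed the filter. Cidec, which lipid-laden hepatocytes also express, averaged 8.92 ± 3.20 and 3.83 ± 2.12 CPM (log2 fold change -1.21, SE 0.365, adjusted p = 0.392, edgeR). Fabp4 averaged 5.58 ± 0.373 and 5.61 ± 0.362 CPM. The part of these markers in the Cfd difference was not tested.

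C3, the protein on which all 3 pathways converge, was at 5000.2, 4849, 4604 and 5233 CPM in W32, W33, W76 and W90. In H11, H12, H15 and H75 it was at 6074, 5761, 5609 and 6267 CPM, so the lowest heterozygous library lay above the highest wild-type library. This was the 1 member of 35 with such a separation upwards, against 2.06% of all genes, and Cfd the 1 member downwards, against 2.32%. With library totals alone as the scaling the C3 groups overlapped. Means were 4922 ± 264 and 5928 ± 298 CPM, 1.20-fold higher in heterozygous livers (log2 fold change 0.27, SE 0.101). The adjusted p was 0.479 by edgeR and 0.0477 by DESeq2, and ran from 0.0184 to 0.804 over 19 settings. The low end came from DESeq2 without H15, a setting added after the data were seen. Without H15 the groups did not overlap in 11 members that were higher, against 5.99% of all genes.

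Factor B, which forms the alternative C3 convertase, was at 905 to 1070.2 CPM in wild-type and 1029.7 (H15) to 1306 CPM in heterozygous libraries. H15 and W90 overlapped, while H11, H12 and H75 lay above all wild-type libraries. Means were 961 ± 74.7 and 1174 ± 141 CPM, 1.22-fold higher (log2 fold change 0.29, SE 0.113, adjusted p = 0.484, edgeR). Properdin (Cfp), which stabilises that convertase and is made by myeloid cells, averaged 9.84 ± 3.12 and 9.77 ± 4.05 CPM. It was highest in H11 (14.1 CPM) and W32, and lowest in H15 (4.84 CPM). Its log2 fold change was -0.01 (SE 0.320), and 0.21 without H15 or without W32. On GRCm38, C3 lies on chromosome 17 from 57203970 to 57228136 (minus strand), Cfb on chromosome 17 from 34856374 to 34862518 (minus strand) and Cfd on chromosome 10 from 79890853 to 79892655 (plus strand). All are protein-coding genes.

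The terminal pathway had the largest positive values of the system. The means of C8a, C8b and C9 were 1.54-fold to 1.81-fold higher in heterozygous livers, C6 and Hc had smaller positive values, and C8g and C7 little or uncertain difference. All 7 genes had a positive log2 fold change, with a median of 0.46, except that C8g was negative with library totals alone (-0.014) and C7 without H15 (-0.0037). The list's 7 genes summed to 1622, 2391, 2441 and 2189 CPM in W32, W33, W76 and W90. The heterozygous sums were 2882, 3591, 2077 and 3471 CPM in H11, H12, H15 and H75, so 3 of 4 heterozygous libraries lay above wild type and H15 inside its range. Without W32 the median of the 7 was 0.27, and without H15 it was 0.61.

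C8b, the β chain through which C8 joins C5b-7, was at 111, 250.1, 222 and 224 CPM in W32, W33, W76 and W90. Heterozygous values were 355, 462, 221 and 428 CPM in H11, H12, H15 and H75. H15 lay within the wild-type range, and W32 lay far below the other wild-type libraries. Means were 202 ± 62.1 and 366 ± 107 CPM, 1.81-fold higher (log2 fold change 0.86, SE 0.278, adjusted p = 0.430, edgeR). The value was 0.66 without W32 and 1.04 without H15. With both left out, a setting chosen after the data were seen, its log2 fold change was 0.84 and edgeR called it (adjusted p = 0.0255). Its adjusted p ran from 8.35e-04 to 0.801 over 19 settings, the lowest from DESeq2 without H15, also added after the data were seen.

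C8a, the α chain that enters the membrane, had the same order of libraries as C8b within each group. It was at 253, 519, 433 and 484 CPM in W32, W33, W76 and W90 and at 656, 778, 466 and 724 CPM in H11, H12, H15 and H75. Means were 422 ± 118 and 656 ± 136 CPM, 1.55-fold higher (log2 fold change 0.64, SE 0.228, adjusted p = 0.458, edgeR). The 2 genes lie tail to tail on chromosome 4 of GRCm38, C8b from 104766317 to 104804548 on the plus strand and C8a from 104815679 to 104876398 on the minus strand. A gap of 11130 bases with no annotated gene separates them. C8g, the lipocalin-like γ chain encoded on chromosome 2, averaged 241 ± 15.9 and 255 ± 34.0 CPM (log2 fold change 0.08, SE 0.110), and whether the 3 chains differ in fold change was not tested. Its libraries ranged from 222 to 257 CPM in wild type and from 226 to 294 CPM in heterozygous mice. Per kilobase, C8g stood at 209.5 in wild-type livers, C8a at 117 and C8b at 90.1, and at 222, 181 and 164 in heterozygous livers.

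C9, whose copies polymerise into the pore, was at 262, 332, 455 and 296 CPM in W32, W33, W76 and W90. Heterozygous values were 431, 646, 305 and 684 CPM in H11, H12, H15 and H75, with W76 above H11 and H15. The mean was 1.54-fold higher in heterozygous livers (log2 fold change 0.62, SE 0.260, adjusted p = 0.505, edgeR). C6, which binds C5b first, was at 89.7 CPM in W32 and 225 to 268 CPM in the other wild-type libraries. Heterozygous libraries had 183 (H15) to 367 (H12) CPM, and the log2 fold change was 0.46 (SE 0.312) with all libraries and 0.21 without W32. Hc, the gene of C5, ranged from 672 to 849 CPM in wild type and was at 925, 1063, 673 and 1062 CPM in H11, H12, H15 and H75 (log2 fold change 0.30, SE 0.154). C7 had 5 to 55 counts per library and a log2 fold change of 0.26 (SE 0.519). Its lowest and highest counts were both in heterozygous libraries. C7 was lowest in H75, at 0.250 CPM.

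**Figure D3:**
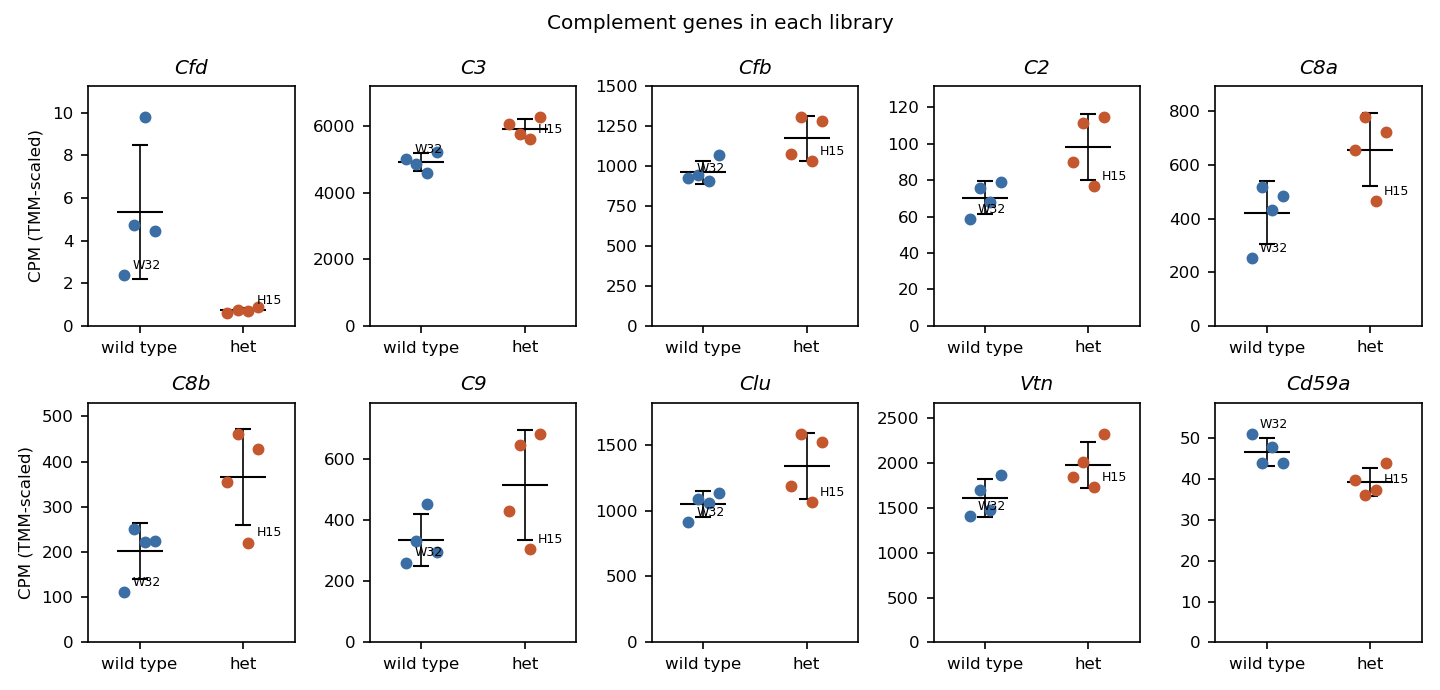
TMM-scaled CPM (linear axis from 0) of the 10 members with an unadjusted p under 0.05, with 1 point per library, the mean as a horizontal line and the SD over 4 libraries as bars; W32 and H15 are labelled. Heterozygous points lie below all wild-type points for Cfd and above them for C3, and H15 is the lowest heterozygous point for C3, Cfb, C2, C8a, C8b, C9, Clu and Vtn.

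Of the classical pathway genes, C2 was higher in heterozygous livers and C4b and C1s1 hardly differed. C2, the protease subunit of the classical C3 convertase, was at 58.8, 75.5, 67.7 and 79.1 CPM in W32, W33, W76 and W90. In H11, H12, H15 and H75 it was at 90.2, 111, 76.5 and 114 CPM, with H15 alone inside the wild-type range. The mean was 1.40-fold higher (log2 fold change 0.48, SE 0.146, adjusted p = 0.395, edgeR), and the value was 0.58 without H15. C2 and Cfb are neighbours in the same orientation, 85 bases apart on chromosome 17. An annotated read-through gene, Gm20547, shares 42.8% of the exonic bases of C2 and 79.5% of those of Cfb on the same strand, and 5 of the 8 values of each gene are not whole. Gm20547 itself was at 0 to 1.70 CPM, so reads assigned to it were few beside those of either gene.

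C4b, the partner of C2 in the convertase, averaged 1255 ± 102 and 1267 ± 80.8 CPM (log2 fold change 0.01, SE 0.0998). It ranged from 1132 to 1375 CPM in wild-type and from 1159 to 1343 CPM in heterozygous libraries. Its sign changed with library totals alone and without W90, H11 or H75. C4b shares 34.6% of its 50-base words with its paralog C4a, and all 8 of its values carry fractions, so its count depends on how reads were split. C4a was at 56.2, 80.9, 156 and 42.7 CPM in W32, W33, W76 and W90 and at 139.8, 102, 40.6 and 124 CPM in H11, H12, H15 and H75. The proteases of the C1 complex, C1ra and C1s1, had log2 fold changes of 0.22 (SE 0.109) and -0.02 (SE 0.0838). C1ra shares 48.0% and C1s1 21.8% of their 50-base words with C1rb and C1s2, which had 0 and at most 1 counts per library.

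The 3 chains of C1q, which macrophages make, kept near-constant proportions and varied together from mouse to mouse in both genotypes. C1qa took 33.8 to 38.3%, C1qb 29.1 to 31.8% and C1qc 30.7 to 35.3% of their sum in the 8 libraries. The sum was 92.9, 53.2, 55.2 and 44.3 CPM in W32, W33, W76 and W90 and 86.6, 68.6, 46.6 and 80.2 CPM in H11, H12, H15 and H75. Clec4f, a Kupffer cell receptor, was highest in the same 3 libraries as C1q, at 83.6 CPM in W32, 76.6 in H11 and 71.6 in H75. It was lowest in H15 (34.7 CPM) and W90 (35.8 CPM), again as in C1q. The sum of the 10 Kupffer markers was highest in the same 3 libraries as C1q. Its low end differed, with W90 (198 CPM) and H12 (212 CPM) lowest and H15 at 240 CPM. The marker Slc40a1 was highest in H15 (115 CPM) and lowest in H12 (50.2 CPM). Log2 fold changes of C1qa, C1qb and C1qc were 0.15, 0.20 and 0.25, each with an SE of 0.235 or more, and none had an unadjusted p under 0.05 with all libraries. Without W32 the value of C1qc was 0.56, and the C1q sums of the groups still overlapped. Of the 10 Kupffer markers, 0 had an unadjusted p under 0.05, and the C1q sum was 19.4 to 32.3% of theirs. Their part in the C1q values was not tested. The 3 genes lie side by side on chromosome 4 with no annotated gene between them.

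**Figure D4:**
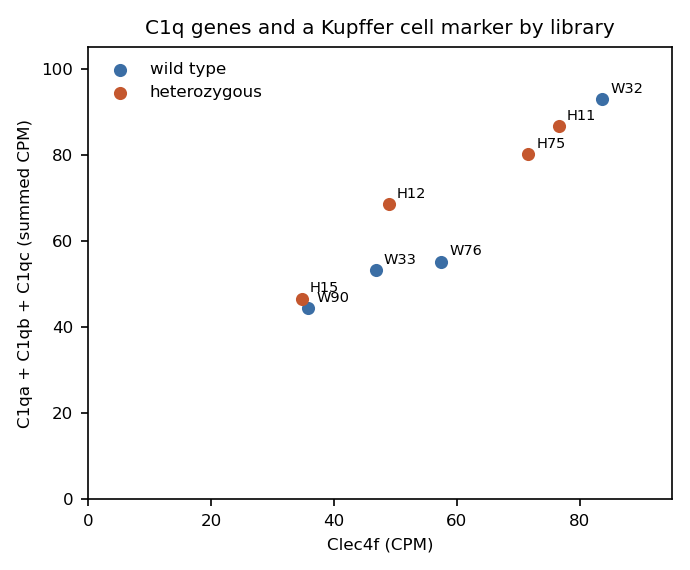
Summed CPM of C1qa, C1qb and C1qc against CPM of the Kupffer cell gene Clec4f, 1 labelled point per wild-type (blue) or heterozygous (orange) library. W32, H11 and H75 are high on both axes and H15 and W90 low on both, with the genotypes interleaved.

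Lectin pathway genes had a median log2 fold change of 0.0058, with 4 positive and 3 negative values and 0 of 7 at an unadjusted p under 0.05. Mbl2, a mannose-binding lectin and the most abundant of them per kilobase in wild-type livers (199), averaged 216 ± 41.7 and 196 ± 25.4 CPM. It was at 169 to 266 CPM in wild-type and at 171 to 225 CPM in heterozygous libraries. Mbl1, its close relative, averaged 273 ± 29.5 and 315 ± 60.0 CPM, and the 2 genes overlapped on the per-kilobase scale. The proteases Masp1 and Masp2 had log2 fold changes of 0.01 (SE 0.106) and 0.09 (SE 0.0886). Exons of Masp2 overlap Tardbp on the other strand over 54.9% of their bases, all 8 Masp2 values carry fractions, and the sources used here do not say whether reads were counted by strand. Fcna, a ficolin of Kupffer cells, was highest in H11 (41.3 CPM), where the Kupffer markers also had their highest sum, and lowest in H15 (19.5 CPM). The Kupffer sum was lowest in W90 (198 CPM) instead, and was 240 CPM in H15, of which the marker Slc40a1 made up 115 CPM.

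Colec10 and Colec11, the collectins that join into 1 lectin, varied widely among heterozygous livers. Colec10 was at 16.8 to 21.6 CPM in wild type and at 26.1, 13.9, 13.5 and 9.16 CPM in H11, H12, H15 and H75. Colec11 was at 20.4 to 27.6 CPM in wild type and at 27.1, 19.1, 24.8 and 13.5 CPM in the same libraries. H75 was the lowest of 8 libraries for both genes and for C7, and the sum of the 9 stellate cell markers was also lowest there. Of these markers, Ngfr was lowest in H15, Des in W76 and Rgs5 in W33. Sums of the 9 stellate markers were 286, 183, 263 and 114 CPM for H11, H12, H15 and H75, against 202 to 249.7 CPM for wild type. Log2 fold changes were -0.28 (SE 0.265) and -0.15 (SE 0.198), and the part of the stellate markers was not tested.

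Among the regulators, the fluid-phase inhibitors of the membrane attack complex were somewhat higher and the membrane inhibitor Cd59a was lower. Clu was at 909.8 to 1135 CPM in wild-type libraries. In H11, H12, H15 and H75 it was at 1186, 1582, 1062 and 1517 CPM, with H15 inside the wild-type range. The mean was 1.28-fold higher (log2 fold change 0.35, SE 0.145, adjusted p = 0.502, edgeR). Vtn was at 1404, 1692, 1476 and 1860.5 CPM in W32, W33, W76 and W90 and at 1839, 2011, 1726 and 2323 CPM in H11, H12, H15 and H75. Its groups overlapped, and the mean was 1.23-fold higher (log2 fold change 0.30, SE 0.133, adjusted p = 0.534, edgeR). Cd59a, which blocks C9 polymerisation on the cell's own membrane, was at 51.1, 44.1, 47.9 and 43.9 CPM in W32, W33, W76 and W90. It was at 39.8, 36.0, 37.4 and 44.1 CPM in H11, H12, H15 and H75, so H75 alone reached the wild-type range. The log2 fold change was -0.25 (SE 0.0931, adjusted p = 0.479, edgeR), and it kept its sign in all 19 settings, from -0.34 to -0.18.

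None of the other regulators had an unadjusted p under 0.05 by edgeR. Cfi, the protease that degrades C3b and C4b, averaged 549.6 ± 21.9 and 636 ± 73.5 CPM (log2 fold change 0.21, SE 0.103). Serping1, the C1 inhibitor, averaged 492 ± 20.1 and 575 ± 81.8 CPM (0.22, SE 0.113). Both lay inside the wild-type range in H15 and were highest in H75. C4bp, a cofactor of Cfi, averaged 548 ± 27.1 and 527 ± 27.7 CPM, with all 8 libraries between 499 and 588. Cd55, which speeds the decay of convertases on cells, had 170 to 315 counts per library and a log2 fold change of 0.28 (SE 0.176). Cfhr2, a factor H-related gene with 29.2% of its 50-base words shared with other genes, had one of 0.03 (SE 0.0990).

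The anaphylatoxin receptors had few counts. C3ar1 had 24 to 68 counts per library and averaged 1.58 ± 0.581 and 1.71 ± 0.587 CPM. It was at 2.32, 1.64, 1.46 and 0.908 CPM in W32, W33, W76 and W90 and at 2.45, 1.62, 1.02 and 1.75 CPM in H11, H12, H15 and H75. C5ar1 had 12 to 39 counts and averaged 0.744 ± 0.394 and 0.935 ± 0.384 CPM. The value of C5ar1 in W32 was above that of any other wild-type library. Log2 fold changes were 0.11 (SE 0.341) and 0.32 (SE 0.425), and 0.77 for C5ar1 without W32.

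**Figure D5:**
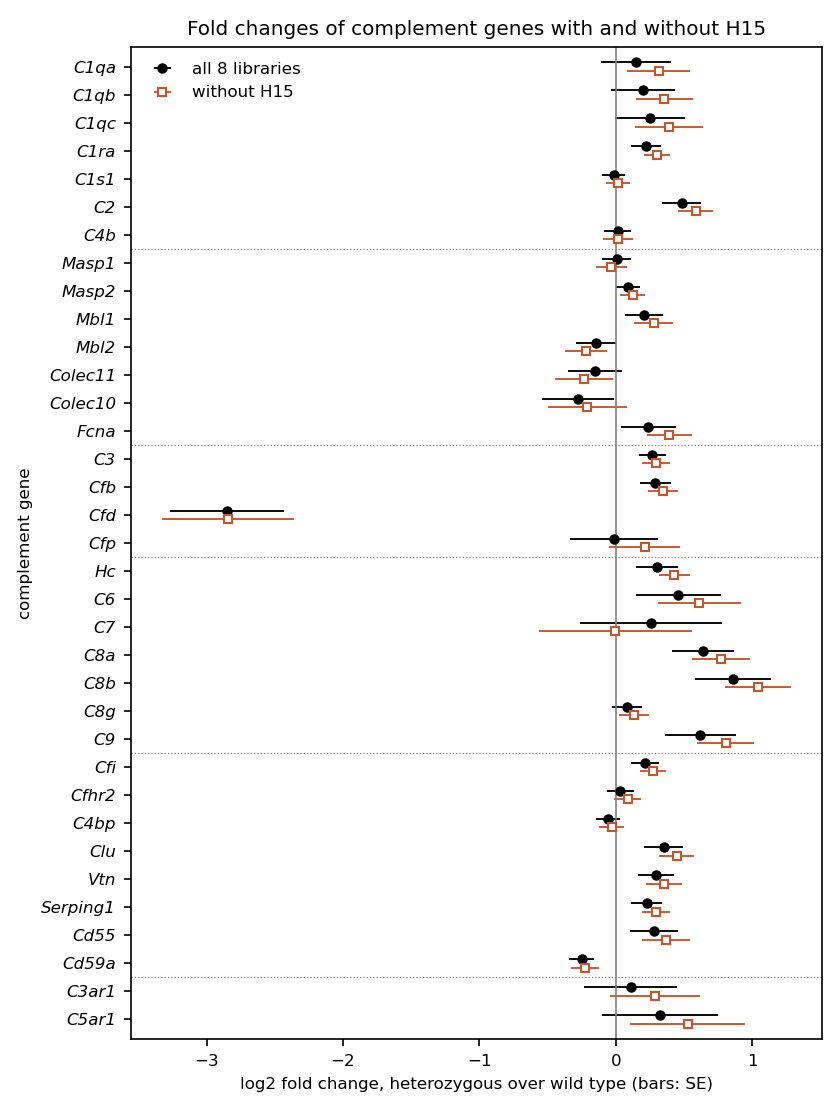
Log2 fold change of each complement gene, heterozygous over wild type, with its SE, from edgeR with all 8 libraries (filled circles) and without H15 (open squares). Cfd stands alone near -2.85 in both fits, C8b moves from 0.86 to 1.04, and most other genes lie between 0 and 0.5.

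Complement genes outside the 35 were compared as a separate list of 27, of which 26 had a row and 20 were tested. At an unadjusted p under 0.05, 2 of 20 were higher and 0 lower, against 4.9% and 4.44% of all genes, and the median log2 fold change was 0.089. Cpn2, the regulatory subunit of the carboxypeptidase that inactivates anaphylatoxins, averaged 258 ± 13.7 and 314 ± 27.7 CPM (log2 fold change 0.29, SE 0.0929). Itgam, the α chain of complement receptor 3 on myeloid cells, averaged 0.505 ± 0.123 and 1.19 ± 0.319 CPM (1.22, SE 0.308), from 11 to 36 counts per library. Summed neutrophil markers, given beside it since neutrophils carry this receptor, were 4.78, 7.70, 1.66 and 6.80 CPM for H11, H12, H15 and H75 and 0.946 to 2.49 CPM for wild type. Itgam was highest in H15, and the part of these markers was not tested. The groups of Cpn2 and Itgam did not overlap, and their adjusted p was 0.430 and 0.354 by edgeR. Those of C5ar2 did not overlap either, at 1.21 ± 0.0722 and 1.63 ± 0.440 CPM from 28 to 57 counts per library. In all, 3 of 20 genes of this list separated upwards and 0 downwards, against 2.06% and 2.32% of all genes. A further list held receptors, cytokines and transcription factors that act on complement genes, and the inhibitors Socs3 and Nfkbia. Its cytokines Il6 and Tnf were too low to be tested. Of its 22 tested genes, 11 were higher and 1 (Esr1) lower at an unadjusted p under 0.05, against 4.9% and 4.44% of all genes. Socs3, the feedback inhibitor of interleukin-6 signalling, had the lowest p (log2 fold change 3.58, SE 0.697, adjusted p = 0.262, edgeR). Socs3 was at 25.2, 65.1, 3.95 and 40.1 CPM over H11, H12, H15 and H75, against 1.97 to 4.68 CPM in wild type. Il1r1, the interleukin-1 receptor, and Cebpd, a C/EBP factor of the acute phase, had log2 fold changes of 0.93 (SE 0.223) and 0.99 (SE 0.250). The order of heterozygous libraries in Socs3, H12 first and H15 last, was also that of several members, C8a, C8b, C1ra, Cfb, Clu and Hc among them. It was also that of the acute phase genes Saa1, Saa2 and Lcn2, while in C2, C3, C9 and Vtn H75 came first. Among wild-type libraries Socs3 was lowest in W76, but C8a and C8b were lowest in W32. Any link between Socs3 and these genes was not tested.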

How the data were processed

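RNA-seq counts of 8 livers were analysed. The authors deposited estimated counts without normalization, and 90.0% of these values are whole numbers. The submitters' processing notes name mm10, fastp 0.19.5, Bowtie2 2.2.9, GATK 3.8 and SAMtools 1.9 without their roles, and the sources used here name no counting program. The authors' deposited comparison table gives, per the file headers, gene length, a ratio (fold change) with its log2, and each gene's p-value before and after adjustment, and its name points to DESeq2. Its log2 values run as heterozygous over wild type: 99.5% shared the sign computed here.

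Column names give the group but no replicate number of the labels. Counts were rounded, filtered with filterByExpr, scaled with TMM and compared by edgeR's quasi-likelihood test (version 4.0.16, R 4.3.3) over 14261 genes, with Benjamini-Hochberg adjustment and group as the only term. DESeq2 1.42.0, limma-voom (limma 3.58.1), other scalings and filters and leaving out libraries were alternatives. Each SE was derived from edgeR's test, as the absolute log2 fold change over the square root of its F statistic. Log2 differences per library used a prior count of 2. Tests were checked on simulated data. No pair of libraries within a group was a duplicate (chi-square per gene at least 22.2). P-values treat the mice as independent.

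The members and lists were chosen with earlier results of these data known. Members were described in full where the unadjusted p was under 0.05, the groups did not overlap, a test called them, a library lay far from its group or the gene led its role per kilobase. Up to 4 genes of lowest p were named from other lists. Others named were chosen after their values were seen. Positions are from GENCODE mouse release 21 on GRCm38, which mm10 denotes. Shared 50-base words were counted in its transcripts.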

Additional observations from a re-analysis of the deposited data

Results flagged for a closer look

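Among the 35 complement genes, 3 had a wild-type library far from the other 3 of its group, by Dixon's criterion for 4 values (gap over range 0.836 for C1qc, 0.837 for C5ar1 and 0.848 for C4bp). C1qc was at 31.3 CPM in W32 and at 14.3 to 17.0 CPM in the others. C5ar1 was at 1.33 CPM in W32 and at 0.465 to 0.605 CPM in the others. C4bp was at 588 CPM in W76 and at 529.6 to 538 CPM in the others. No heterozygous library met the criterion in any of the 35 genes. Chance alone flags about 1 in 20 groups, and 70 groups were examined. W32 also had the highest Csf1r among wild-type libraries, at 44.4 CPM against 15.3 to 23.9 CPM. The part of macrophage markers in the C1qc and C5ar1 values was not tested.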

How the results depend on the processing

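No paired analysis was possible because the count columns carry none of the labels' replicate numbers. With each library left out in turn, edgeR called 0 to 252 genes and 0 to 1 complement members. Members at an unadjusted p under 0.05 numbered 3 to 13 higher, against 2.99 to 7.84% of all genes. Lower members numbered 1 to 3, against 4.44% of all genes in the fit of all libraries. Members whose groups did not overlap numbered 2 to 12, against 2.8 to 5.99% of all genes higher and 3.06 to 7.43% lower. The median log2 fold change of the members was 0.11 to 0.29. DESeq2 called 152 genes and 2 members, and no filter on low counts gave 18 genes and 1 member. The newer quasi-likelihood method, the robust fit and an adjusted p under 0.1 gave 1 gene each. Library totals alone left 5 higher members at an unadjusted p under 0.05, against 2.92% of all genes. Added after the data were seen, leaving out W32 and H15 together gave 112 genes, 2 members called (C8b and Cfd), 18 members higher at an unadjusted p under 0.05 (6.34% of all genes) with 1 lower, and 17 members whose groups did not overlap (16 higher and 1 lower, against 8.2% and 9.2% of all genes). These libraries were picked for standing apart in these results. DESeq2 without H15, also added, gave 778 genes (5.36% of all) and 10 members called. In that fit 14 members were higher at an unadjusted p under 0.05, against 7.87% of all genes, and 1 was lower. The median kept its sign in all 19 settings. The cause of these shifts was not tested.

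With library totals alone the log2 fold change turned negative for C4b (-0.072), C8g (-0.014), Masp1, Masp2 and Cfhr2, and for the adipocyte marker Fabp4 (-0.077). Masp1 was also negative with upper quartile scaling and limma-voom. With 1 library left out the value ran from -0.035 to 0.061 for C4b, from -0.12 to 0.35 for C3ar1 and from -0.027 to 0.047 for Fabp4. The sign also turned in at least 1 such fit for Masp1 (-0.033 without H15), Cfp (0.21 without H15), C1s1 (0.013 without H15), C7 (-0.0037 without H15), Cfhr2 and Colec11. All of these are smaller than 1 SE in the fit of all libraries. Upper quartile scaling gave -0.0075 for Fabp4, both libraries left out -0.019, and DESeq2 without H15 -0.016. C7, C3ar1 and C5ar1 had few counts, counting error and spread between mice were not separated, and Cfd in heterozygous livers rests on under 20 counts per library.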

Other observations

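C4a, the paralog of C4b, varied several-fold between livers of both genotypes. It was at 42.7 to 156 CPM in wild-type and 40.6 to 139.8 CPM in heterozygous libraries, with a log2 fold change of 0.28 (SE 0.438), while C4b lay between 1132 and 1375 CPM in all 8. W32, the wild-type library lowest for C6, C8a, C8b and C9, was also the lowest library for Susd4, a membrane inhibitor of complement, at 15.2 CPM against 19.3 to 35.3 CPM in the other wild-type and 21.3 to 43.9 CPM in heterozygous libraries.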
